A study of Mus musculus with 6 samples.

Results

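The 4 mouse sialidases (Neu1, Neu2, Neu3 and Neu4) and 5 genes of lysosomal ganglioside breakdown (Hexa, Gm2a, Glb1, Ctsa and Psap) were followed through RNA-seq of whole retinas. They were taken by gene symbol, and all 9 are among the 24346 symbols of the deposited tables. The libraries are 3 from triple-deficient mice (Panky-/-;Panky-like-/-;Nrl-/-), set against 3 from control mice (Panky+/-;Panky-like+/-;Nrl-/-), all at postnatal day 12. By their labels, the controls carry 1 mutant copy of each Panky gene and are Nrl-/- like the triple-deficient mice, so no library is labelled as a wild-type retina. The series design names 3 pairs of littermates. Nrl directs photoreceptor precursors to the rod fate, and in its absence most of them become cone-like. Panky is Ankrd33, a photoreceptor co-repressor, and Panky-like stands here for the related gene Ankrd33b, which the labels do not state. The series title names ganglioside metabolism as a process that both genes modulate. The comparison of these 9 genes addresses only transcripts of its breakdown side. Enzymes of ganglioside synthesis are not among them, so the comparison cannot settle the statement of the title.

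Gangliosides are glycosphingolipids that carry sialic acid and are abundant in the membranes of neurons. They are taken apart in the lysosome, one sugar at a time, by hydrolases that often need a small lipid-binding protein to lift the lipid out of the membrane. Sialidases remove the sialic acids, beta-galactosidase (Glb1) removes terminal galactose, and beta-hexosaminidase, of which Hexa is a subunit, removes N-acetylgalactosamine with the help of the GM2 activator (Gm2a). Prosaposin (Psap) is cut into the saposins, which are lipid-binding helpers of such hydrolases. Ctsa, the protective protein, holds Neu1 and Glb1 in a stable complex. Loss of Neu1, Ctsa, Glb1, Hexa or Gm2a function in humans causes lysosomal storage disease, in several forms with a cherry-red spot in the retina.

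The promoters of Neu1, Ctsa, Glb1 and Neu3 are shown because the first 3 encode the lysosomal sialidase complex and Neu3 stood farthest from 0 of the tested genes between the genotypes. Each run gives the 250 bases before a RefSeq transcript start (GRCm38.p6), 5′ to 3′ on the gene's strand, with the E-box CACGTG in capitals. CACGTG is the core of the element that the lysosomal regulator TFEB recognises. Ctsa has 2 such starts, and the run shown belongs to the one with the motif. The run before its other start (chr2:164832622-164832871) holds no CACGTG.
Neu1 (chr17:34931003-34931252, plus strand): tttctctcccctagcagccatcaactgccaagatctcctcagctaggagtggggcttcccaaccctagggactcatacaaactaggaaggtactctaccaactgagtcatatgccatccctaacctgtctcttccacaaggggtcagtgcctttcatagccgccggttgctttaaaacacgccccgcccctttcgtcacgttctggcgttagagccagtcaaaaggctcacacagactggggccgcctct
Ctsa (chr2:164833523-164833772, plus strand): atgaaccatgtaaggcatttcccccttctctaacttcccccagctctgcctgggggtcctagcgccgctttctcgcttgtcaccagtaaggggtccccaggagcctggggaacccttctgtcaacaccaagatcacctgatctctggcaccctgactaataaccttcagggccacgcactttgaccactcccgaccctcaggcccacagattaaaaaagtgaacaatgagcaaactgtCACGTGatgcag
Glb1 (chr9:114400828-114401077, plus strand): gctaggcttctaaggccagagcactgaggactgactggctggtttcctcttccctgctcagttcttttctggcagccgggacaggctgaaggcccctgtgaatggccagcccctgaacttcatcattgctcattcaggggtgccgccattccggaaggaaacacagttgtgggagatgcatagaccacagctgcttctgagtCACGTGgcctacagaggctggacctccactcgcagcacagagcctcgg
Neu3 (chr7:99828418-99828667, minus strand): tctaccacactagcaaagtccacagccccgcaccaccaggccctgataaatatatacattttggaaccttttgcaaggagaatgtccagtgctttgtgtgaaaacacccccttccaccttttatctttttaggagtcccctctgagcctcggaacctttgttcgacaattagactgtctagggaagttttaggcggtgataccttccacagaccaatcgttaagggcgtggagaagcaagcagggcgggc
Of the 13 windows that RefSeq gives for the 9 genes (250 bases before to 50 after a start), Glb1's single window and 1 of the 2 Ctsa windows held CACGTG. The Glb1 motif began 48 bases before the start. Ctsa had 1 motif 12 bases before the start and a further one within the first 50 transcribed bases. Among all 32851 windows, 7.15% held at least 1 CACGTG and 0.594% held 2 or more. The longer form with GT before and AC after the core, present in 0.326% of all windows, and TAATCC, a motif of the photoreceptor factor Crx present in 7.06%, were found in none of the 13. Both strands were searched, and the longer E-box form includes the shorter one. A match is a string of letters in a window and does not show that a factor binds there, and the absence of one says nothing of the factor.

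The targeted genes bear on the labels unequally. Ankrd33b stood at 1.80, 1.31 and 1.39 FPKM in the triple-deficient libraries and at 35.4, 32.6 and 33.4 FPKM in the controls, where FPKM is a fragment count divided by transcript length and by library size. Ankrd33 stood at 56.6, 59.6 and 50.5 FPKM in triple-deficient libraries and at 105, 104 and 110 FPKM in controls, so it was lower but far from 0 in the libraries labelled Panky-/-. Nrl was at 52.6, 51.3 and 53.7 FPKM in triple-deficient libraries and at 49.2, 38.3 and 45.0 FPKM in controls, although every library is labelled Nrl-/-. The tables give 1 value per gene and do not separate the deleted part from the rest of a transcript. The values of Nrl therefore do not bear out its label, and whether they come from sequence outside a deletion was not tested. Estimated depth was 18.1 to 27.1 M fragments in triple-deficient and 22.5 to 24.9 M in control libraries. Of the tissue markers, the cone opsin Opn1sw was at 1406 to 1565 FPKM in triple-deficient and 1503 to 1568 FPKM in control libraries. Gnat1, the rod transducin subunit, was at 0.269 to 0.367 FPKM in triple-deficient and 0.345 to 0.514 FPKM in control libraries, so cone opsin transcripts were abundant and those of rod transducin scarce in every library. Gnat1 does not stand for all markers listed for rods. Sag averaged 1289 FPKM in triple-deficient and 1292 FPKM in control libraries, and Pde6b 19.7 and 20.9 FPKM. Nr2e3 averaged 4.42 FPKM in triple-deficient and 3.69 FPKM in control libraries, and Cnga1 0.0057 and 0.010 FPKM. Whole retina mixes many cell types, and fewer cells of a type cannot be told apart from less RNA per cell.

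None of the 9 genes was called as changed between the genotypes, and 2 of them were too low to test. Changes are differences of log2(FPKM + 1), triple-deficient minus control, tested with limma on the 14325 genes that averaged 0.5 FPKM or more, and called at a Benjamini-Hochberg adjusted p below 0.05. Neu1, Neu3, Hexa, Gm2a, Glb1, Ctsa and Psap passed the filter on low values, and Neu2 and Neu4 did not. In all, 0 of the 7 tested genes passed in either direction, against 0.0279% of all genes tested, and 0 of the 7 had an unadjusted p below 0.05, against 5.09% of all genes tested. Adjusted p ran from 0.946 for Neu3 to 0.997 for Glb1 and Psap. The median change of the 7 was 0.0038, against 0.0034 over all genes tested. The 95% intervals ran from -0.30 to 0.21, so a change of FPKM + 1 beyond a 19.0% fall (Neu3) or a 15.6% rise (Neu1) lay outside them.

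**Figure D1:**
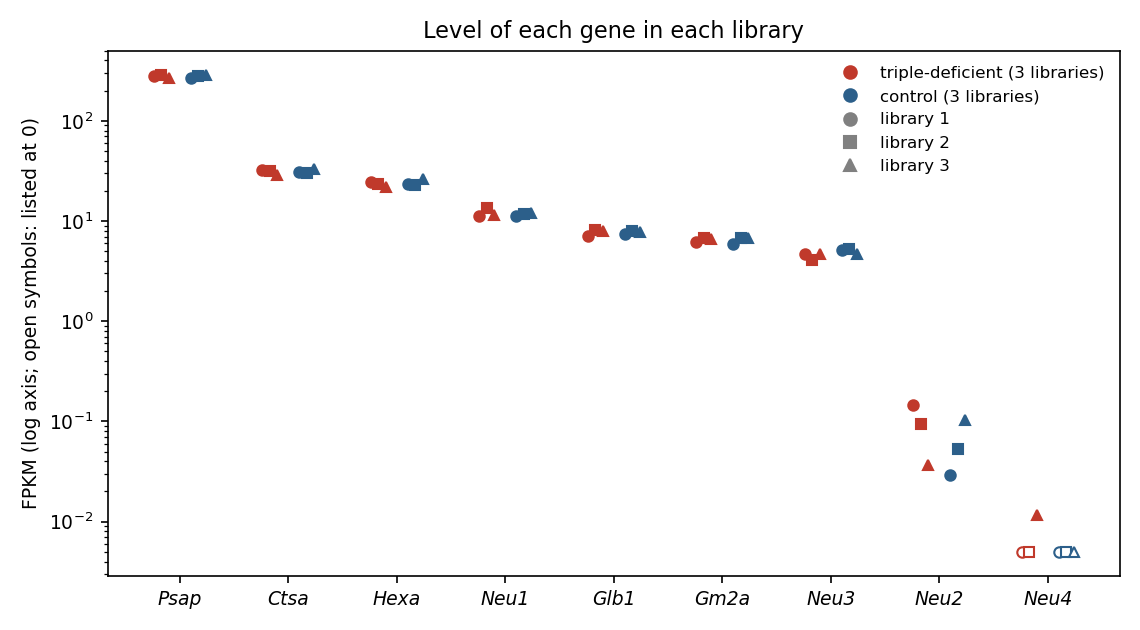
FPKM of the 9 genes (x axis, by mean level) in each of the 3 triple-deficient (red, left) and 3 control (blue, right) libraries on a log axis; symbols mark libraries 1 to 3, and open symbols at the bottom stand for values listed at 0. Psap sits near 278 FPKM, Ctsa to Neu3 between 4.12 and 33.2 FPKM, and Neu2 and Neu4 below 0.15 FPKM.

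The order of levels was the same in all 6 libraries. Psap was highest with a mean of 278 FPKM, rank 163 of the 24346 symbols, and stood 8.92 times above Ctsa at 31.2 FPKM. Hexa at 23.7 FPKM, Neu1 at 11.9 FPKM, Glb1 at 7.72 FPKM, Gm2a at 6.51 FPKM and Neu3 at 4.77 FPKM followed. FPKM is scaled to transcript length, which allows a rough comparison of levels between genes. The part of base composition, the annotation and overlapping genes in this order was not tested. Among the 7 genes above the filter, the ranges over the 6 libraries were separate for every neighbouring pair. Glb1 and Gm2a were the closest pair, with Glb1 at 7.09 FPKM or more and Gm2a at 6.78 FPKM or less.

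Among the sialidases, Neu1 is the lysosomal enzyme held in the complex with Ctsa. It was at 11.2, 13.5 and 11.6 FPKM in triple-deficient libraries 1, 2 and 3, and at 11.3, 11.7 and 11.9 FPKM in control libraries 1, 2 and 3. Triple-deficient 2 stood above all others and triple-deficient 1 below all others, so the groups overlapped. The change was 0.045 (SE 0.071, 95% interval -0.12 to 0.21, limma adjusted p = 0.966). Without triple-deficient 2 it was -0.028.

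Neu3 is a sialidase of the plasma membrane that acts preferentially on gangliosides. It was at 4.69, 4.12 and 4.68 FPKM in triple-deficient libraries 1, 2 and 3, and at 5.14, 5.26 and 4.70 FPKM in control libraries 1, 2 and 3. All 3 triple-deficient values lay below all 3 control values, but the highest triple-deficient and the lowest control value were 0.017 FPKM apart. Neu3 averaged 4.50 ± 0.324 FPKM in triple-deficient and 5.03 ± 0.293 FPKM in control libraries (SD, n = 3 each). The change was -0.14 (SE 0.074, 95% interval -0.30 to 0.034, limma adjusted p = 0.946) and missed the threshold. Neu3 was the only 1 of the 7 whose groups did not overlap; over all genes tested, 10.5% had groups that did not overlap, 5.64% with the triple-deficient libraries lower. Without triple-deficient 2 the change of Neu3 was -0.085.

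Several pigment epithelium markers had lower values in the triple-deficient libraries, as Neu3 did, but none passed the test. The summed level of 6 pigment epithelium markers was 12.7 to 19.2 FPKM in triple-deficient and 20.4 to 30.7 FPKM in control libraries, and 4 of the 6 (Ttr, Tyrp1, Pmel and Tyr) had every triple-deficient value below every control value. Over all genes tested, 5.64% had groups so placed, and for Tyr the gap between the groups was 0.011 FPKM. Ttr made up most of the sum, at a mean of 8.81 of 15.4 FPKM in triple-deficient and 15.8 of 26.7 FPKM in control libraries. The groups of Rpe65 and Best1 overlapped. Rpe65 was at 1.52 to 3.81 FPKM in triple-deficient and 1.91 to 3.05 FPKM in control libraries. Best1, below the filter, averaged 0.253 FPKM in triple-deficient and 0.264 FPKM in control libraries. The summed level of 8 Müller glia markers was 1748 to 1882 FPKM in triple-deficient and 1931 to 1974 FPKM in control libraries, and most of this gap lay in 1 gene. Apoe, a lipid carrier, was at 545, 516 and 437 FPKM in triple-deficient libraries and at 630, 569 and 599 FPKM in controls, the groups of the other 7 markers overlapped, and 5 of the 8 had changes above 0. Without Apoe, left out after its values were seen, the sum overlapped, at 1311 to 1366 FPKM in triple-deficient and 1305 to 1405 FPKM in control libraries. No marker of either list was called or listed at 0, and their part in the Neu3 values was not tested. The summed level of 8 microglia markers overlapped between the groups, at 43.0 to 47.2 FPKM in triple-deficient and 43.0 to 49.9 FPKM in control libraries. All 5 ganglion cell markers had changes below 0 and all 5 bipolar cell markers had changes above 0, each with overlapping groups.

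Neu2, the cytosolic sialidase, was close to the limit of detection. It was listed at 0.147, 0.0940 and 0.0365 FPKM in triple-deficient libraries 1, 2 and 3, and at 0.0295, 0.0533 and 0.103 FPKM in control libraries 1, 2 and 3. Scaled for depth, these values are 5.99, 3.0 and 0.997 times the control 1 value in triple-deficient libraries and 1, 2.0 and 3.58 times in controls, and 1 fragment of a Neu2 transcript is worth an estimated 0.0202 to 0.0302 FPKM. Divided by that worth, the values come to 7.25, 3.63 and 1.21 fragments in triple-deficient libraries and to 1.21, 2.42 and 4.34 in controls, so each rests on a handful of fragments whichever scale is used, and the groups overlapped. Neu4, a sialidase of internal membranes, was listed at 0 in 5 libraries and at 0.0117 FPKM in triple-deficient 3, close to the estimated 0.0122 FPKM of 1 fragment there. At this depth neither gene allows a statement on the genotypes.

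Neu1 made up 69.9%, 76.1% and 71.1% of the summed sialidase FPKM in triple-deficient libraries 1, 2 and 3, and 68.7%, 68.8% and 71.3% in control libraries 1, 2 and 3. Neu3 made up 23.3% to 29.1% in triple-deficient and 28.1% to 31.1% in control libraries. Both shares overlapped between the groups, and the sum itself was 16.1 to 17.7 FPKM in triple-deficient and 16.5 to 17.04 FPKM in control libraries. Neu2 and Neu4 together held less than 1% of the sum in each library. The ratio of Neu1 to Neu3, chosen after the values were seen, was 2.40, 3.26 and 2.48 in triple-deficient libraries and 2.21, 2.23 and 2.54 in controls.

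**Figure D2:**
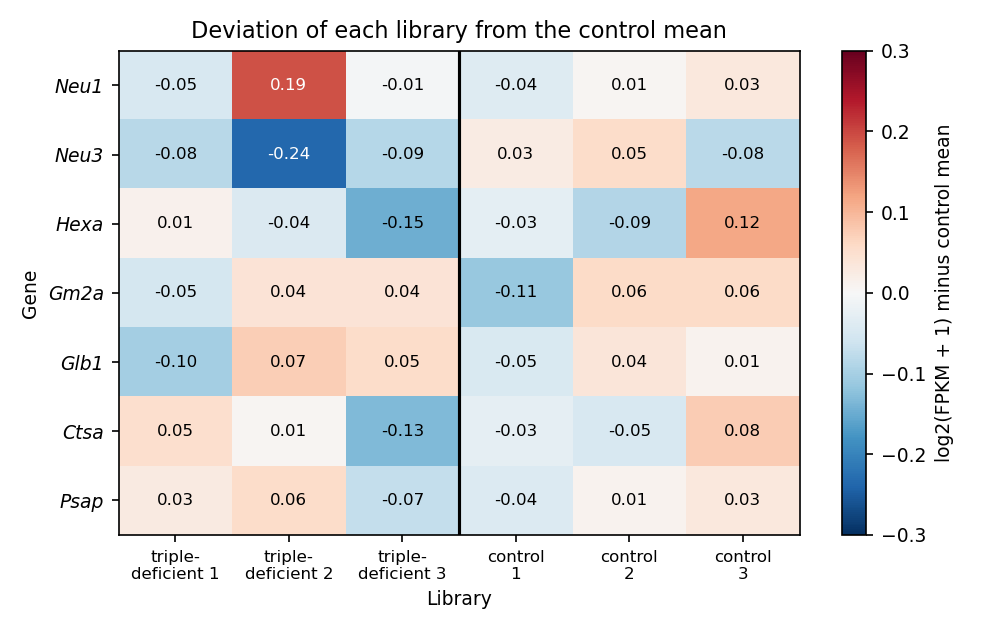
Deviation of each library (columns; triple-deficient left of the line, control right) from the control mean on the log2(FPKM + 1) scale for the 7 tested genes (rows), red for higher and blue for lower. The entries farthest from 0 are Neu3 (-0.24) and Neu1 (0.19), both in triple-deficient 2.

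Ctsa, the serine carboxypeptidase that protects Neu1 and Glb1, was at 32.6, 31.6 and 28.6 FPKM in triple-deficient libraries 1, 2 and 3, and at 30.9, 30.4 and 33.2 FPKM in control libraries 1, 2 and 3. The groups overlapped, and the change was -0.025 (SE 0.062, 95% interval -0.17 to 0.12, limma adjusted p = 0.979). Glb1, the lysosomal beta-galactosidase, was at 7.09, 8.14 and 8.02 FPKM in triple-deficient libraries and at 7.42, 7.91 and 7.75 FPKM in controls. The triple-deficient values lay on both sides of the controls, with a change of 0.0082 (SE 0.067, 95% interval -0.15 to 0.16, limma adjusted p = 0.997).

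The transcript ratios within the complex of Ctsa, Neu1 and Glb1 overlapped as well, and protein was not measured. The ratio of Neu1 FPKM to Ctsa FPKM was 0.345 to 0.425 in triple-deficient and 0.359 to 0.386 in control libraries. The Glb1 to Ctsa ratio was 0.217 to 0.280 in triple-deficient and 0.233 to 0.260 in control libraries. For both ratios the triple-deficient range reached below and above the control range. Galns, a sulfatase that has been found in the same complex, was at 8.48 ± 0.391 FPKM in triple-deficient and 8.42 ± 0.608 FPKM in control libraries (SD, n = 3 each).

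Hexa, the alpha subunit of beta-hexosaminidase A, was at 24.3, 23.4 and 21.7 FPKM in triple-deficient libraries 1, 2 and 3, and at 23.6, 22.7 and 26.2 FPKM in control libraries 1, 2 and 3. The lowest value was that of triple-deficient 3 and the highest that of control 3, with the rest mingled. The change was -0.060 (SE 0.068, 95% interval -0.21 to 0.095, limma adjusted p = 0.959). Gm2a, which presents the ganglioside GM2 to the enzyme, was at 6.20, 6.69 and 6.68 FPKM in triple-deficient libraries and at 5.90, 6.78 and 6.78 FPKM in controls, a change of 0.0092 (SE 0.071, 95% interval -0.15 to 0.17, limma adjusted p = 0.996). Here control 1 held the lowest value.

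The ratio of Hexa to Gm2a was 3.25 to 3.92 in triple-deficient and 3.34 to 4.0005 in control libraries, so the ranges overlapped.

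Psap, the precursor of the saposins and a secreted neurotrophic protein, was at 283, 289 and 265 FPKM in triple-deficient libraries 1, 2 and 3, and at 270, 280 and 284 FPKM in control libraries 1, 2 and 3. The triple-deficient libraries held both the highest and the lowest value. The change was 0.0038 (SE 0.052, 95% interval -0.11 to 0.12, limma adjusted p = 0.997), the tightest interval of the 7.

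**Figure D3:**
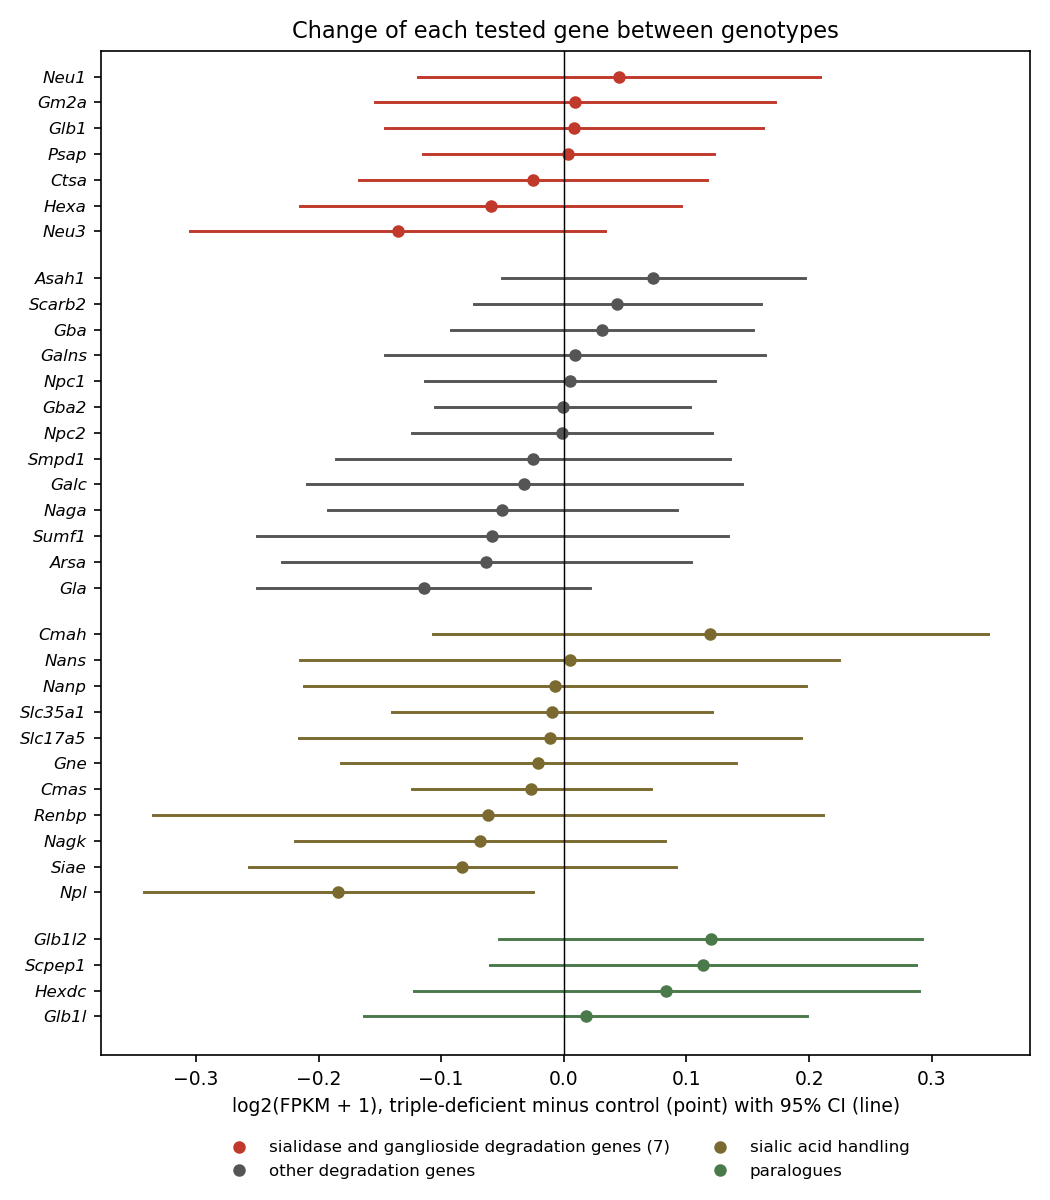
Change of log2(FPKM + 1), triple-deficient minus control (points), with 95% confidence intervals (lines) for the 7 tested sialidase and degradation genes (red), other glycosphingolipid degradation genes (grey), sialic acid handling genes (brown) and paralogues (green). Every interval of the 7 spans 0; among the other genes, that of Npl (-0.34 to -0.025) does not, and Npl missed the adjusted threshold.

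Hexa, Ctsa and Psap each had their lowest value in triple-deficient 3. That library stood apart in base composition: across genes, its deviations correlated with GC content at Spearman -0.59, against 0.065 to 0.30 in the other 5 libraries, as a description over genes that are not independent. The longest transcripts of the 3 genes have 54.5% to 55.1% GC. With the GC trend of each library removed, the changes were -0.033 for Hexa, -0.0020 for Ctsa and 0.028 for Psap, and those of Neu1 and Neu3 were 0.062 and -0.14.

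Over the 6 libraries, Hexa and Ctsa were the pair of tested genes that varied most alike. Their Pearson r was 0.934 (exact permutation p = 0.0111, adjusted p = 0.233) and their Spearman coefficient 0.943 (exact permutation p = 0.0167, adjusted p = 0.350), both two-sided and adjusted over 21 pairs. Without the 2 libraries farthest from the median of Hexa, r was 0.874. By Pearson's r, Neu1 and Neu3 went most opposite ways, at an r of -0.763 and a Spearman coefficient of -0.257 (exact permutation p = 0.0986 and 0.658, adjusted p = 0.513 and 0.937). Without the 2 libraries farthest from the median of Neu1, r was -0.430, over too few libraries to tell what the value rests on. By the Spearman coefficient the most opposite pair was Hexa and Glb1, at -0.657 (exact permutation p = 0.175, adjusted p = 0.735). No pair passed after adjustment.

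The genes of at least 5 FPKM whose levels followed each of the 7 most closely are given with Pearson's r over the 6 libraries as the measure of likeness. They were Smim4 (0.983) and Tube1 (0.967) for Neu1, and Smarcc1 (0.979) and Hook2 (0.977) for Neu3. For Hexa they were Rnpep (0.997) and Actb (0.991), and Eef2 (0.997) was close to Ctsa. Chn1 (0.987) and Fgfr1op2 (0.983) came closest to Gm2a, Vsnl1 (0.992) and Ccdc25 (0.978) to Glb1, and Ddx39b (0.996) and Kit (0.986) to Psap. Each named gene was picked for its high r from a large number compared over only 6 libraries, so a high r is no evidence of a link. Of 10194 genes compared, 20 reached an r of at least 0.9 with Neu1 and 333 with Ctsa.

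The other genes of glycosphingolipid breakdown were likewise called in neither direction. Of 13 listed, all were tested and 0 rose and 0 fell, with a median change of -0.0013, against 0.0034 over all genes tested. Gla, the alpha-galactosidase of globoside breakdown, had the smallest p of the list, at 6.26, 6.45 and 6.46 FPKM in triple-deficient libraries and 6.70, 7.33 and 6.97 FPKM in controls (change -0.11, SE 0.059, limma adjusted p = 0.943). Its groups did not overlap, as for 10.5% of all genes tested. Asah1, the acid ceramidase, was at 25.8 ± 1.13 FPKM in triple-deficient and 24.5 ± 1.04 FPKM in control libraries (SD, n = 3 each; limma adjusted p = 0.951). Arsa, the sulfatase that acts on sulfatide, was at 6.18 ± 0.250 FPKM in triple-deficient and 6.51 ± 0.557 FPKM in control libraries (SD, n = 3 each; limma adjusted p = 0.959).

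Genes that make, carry or break down free sialic acid numbered 11, and 0 rose and 0 fell (median change -0.021). Npl, the lyase that splits sialic acid, was at 6.72, 6.74 and 6.76 FPKM in triple-deficient libraries and 7.05, 8.18 and 8.20 FPKM in controls. All triple-deficient values lay below the controls, and the change was -0.18 (SE 0.069, limma unadjusted p = 0.0280, adjusted p = 0.906), so it missed the threshold. Over all genes tested, 5.64% had groups so placed and 5.09% had a limma unadjusted p below 0.05. Cmah, which hydroxylates the sialic acid donor in mice, was at 0.697 ± 0.097 FPKM in triple-deficient and 0.563 ± 0.118 FPKM in control libraries, and Siae, a sialic acid acetylesterase, at 3.17 ± 0.0486 FPKM in triple-deficient and 3.43 ± 0.318 FPKM in control libraries (SD, n = 3 each; limma adjusted p = 0.958 for both).

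Paralogues of the 9 genes numbered 7, of which 4 were tested and 3 (Glb1l3, Psapl1 and Cpvl) stayed below the filter with at most 0.115 FPKM in any library. None was called, and the median change of the 4 tested was 0.099. Glb1l2, a relative of Glb1, was at 5.36, 5.27 and 5.36 FPKM in triple-deficient libraries and 4.77, 5.35 and 4.39 FPKM in controls (change 0.12, limma adjusted p = 0.946). Scpep1, a serine carboxypeptidase related to Ctsa, was at 6.78 ± 0.427 FPKM in triple-deficient and 6.20 ± 0.513 FPKM in control libraries, and Hexdc, a hexosaminidase outside the lysosome, at 30.7 ± 0.890 FPKM in triple-deficient and 29.0 ± 3.92 FPKM in control libraries (SD, n = 3 each). Their adjusted p were 0.946 and 0.959 in the limma fit.

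**Figure D4:**
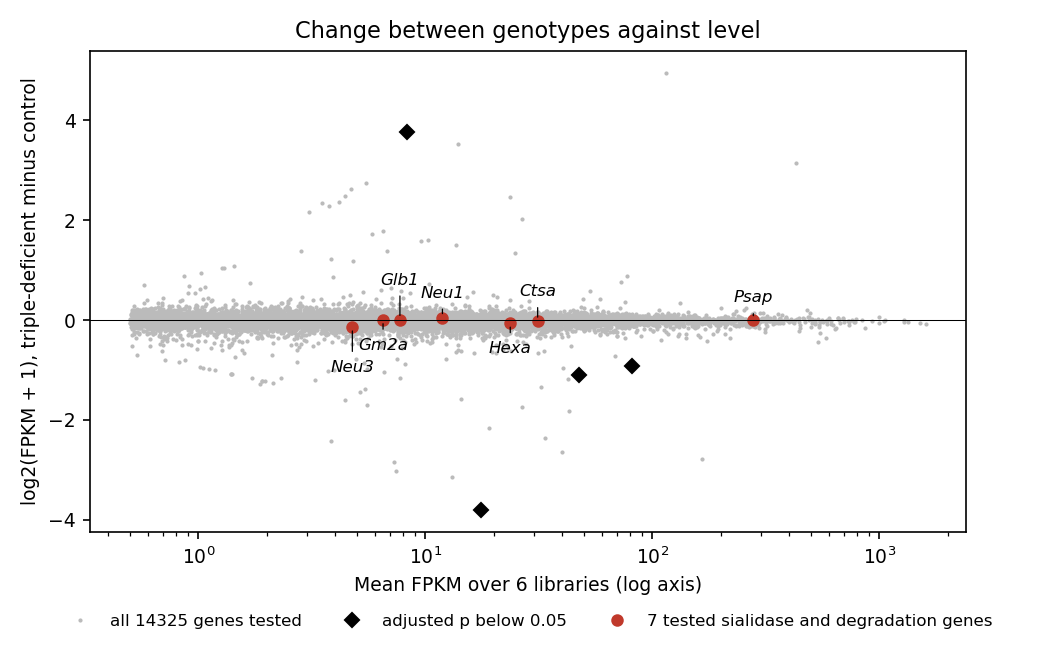
Change of log2(FPKM + 1), triple-deficient minus control, against the mean FPKM over 6 libraries (log axis) for all 14325 genes tested (grey), with the 4 genes past the threshold as black diamonds and the 7 tested sialidase and degradation genes in red. The 7 lie within the band around 0, between -0.14 (Neu3) and 0.045 (Neu1).

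Genome positions are RefSeq positions on GRCm38.p6 (mm10). Neu1 spans chr17:34931253-34937297, Neu2 chr1:87574027-87597845, Neu3 chr7:99811434-99828457 and Neu4 chr1:94020493-94028334. Hexa spans chr9:59539540-59565109, Gm2a chr11:55097985-55113029, Glb1 chr9:114401078-114474379, Ctsa chr2:164832872-164841032 and Psap chr10:60277628-60302600. Ctsa overlaps Neurl2 and Pltp on the other strand, Glb1 overlaps Tmppe, and Hexa overlaps Tmem202. The kit marks strand, but whether the authors counted by strand is not given in the sources used here, so fragments in the shared stretches cannot be assigned with certainty.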

How the data were processed

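RNA from whole mouse retinas was made into libraries with a stranded mRNA kit, per the labels' protocols. Each of the 6 deposited tables holds 1 FPKM value per gene symbol, computed by the authors, per the file headers. The submitters' processing notes list TopHat2 2.1.1, Bowtie2 2.3.5.1, Cufflinks 2.2.1, Cuffdiff and build mm10 without roles. Which annotation was used, and how libraries were scaled, is not given in the sources used here.

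FPKM values were used unscaled. Read totals were estimated from the steps of values below 0.3 FPKM, so depths and fragment numbers are estimates, no counts were rebuilt, and counting error cannot be given. Genotypes were compared on log2(FPKM + 1) with limma 3.58.1 in R 4.3.3, the trend of variance with level included. That scale understates changes of low genes. Tests were two-sided, with Benjamini-Hochberg adjustment. Genes averaging 0.5 FPKM or more entered. The series design names 3 pairs of littermates, but no label ties a library's number to a litter, and whether a library holds 1 animal is not given in the sources used here, so p-values cover the spread between these samples. GC content came from the longest GENCODE M21 transcript.

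The 9 genes, the lists and the markers were chosen with earlier results of these data known. Named are the 9 genes, the targeted genes, the 3 genes with the smallest p in each other list, and the 2 genes most like each tested gene. Galns, Opn1sw, Gnat1, Sag, Pde6b, Nr2e3, Cnga1, Apoe and the 6 pigment epithelium markers are named outside this rule, chosen after their values were seen. A few genes that these rules cover are not reported here. Alternatives covered the pseudocount, the filter, the trend, shrinkage, scaling, library weights, GC content, sex, the replicate number and each library left out. Sex was inferred from the level of Xist in each library.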

Additional observations from a re-analysis of the deposited data

How the results depend on the processing

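None of the 7 tested genes, and none of the 3 other lists, gained a call in any of the 19 alternatives. The smallest adjusted p of a sialidase or degradation gene was 0.515, for Neu3 with array quality weights (change -0.20). The limma unadjusted p of Neu3 was 0.0203 in that fit and 0.102 in the main fit. It was below 0.05 in no other setting, so it depended on the weighting. Neu3 and Hexa kept a negative change in all 19, between -0.20 and -0.085 and between -0.10 and -0.0017. The sign of the other 5, all near 0, depended on the setting. With array quality weights Ctsa was at 0.0203. Leaving out 1 library gave ranges of -0.0631 to 0.0283 for Ctsa, -0.0242 to 0.0636 for Glb1, -0.0482 to 0.0406 for Gm2a, -0.0276 to 0.0917 for Neu1 and -0.0224 to 0.0410 for Psap. With no filter, Neu2 and Neu4 entered at 0.040 and 0.0056 (limma adjusted p = 0.954 and 0.984). At levels so far below the added 1 FPKM, this scale holds any change near 0. The 2 values therefore say nothing of the genotypes. The number of genes called over all genes was 4, against 2 with no filter, 2 with robust shrinkage and 3 to 11 with 1 library left out (10 without triple-deficient 1, 11 without triple-deficient 3 and 7 without control 3). The cause of these shifts was not tested.

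With the replicate number as a block, 4 genes were called and the change of Neu3 had an adjusted p of 0.984. Deviations of same-numbered libraries correlated at 0.022, 0.11 and 0.067, not all above 0.1. The series design speaks of littermates, but the numbers are tied to litters by no label and were not taken as pairs; triple-deficient 1 correlated best with control 3 (0.12). With 3 libraries a group, changes inside the printed intervals cannot be told from 0, and Neu2 and Neu4 are limited by depth.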
